A study of Mus musculus with 4 samples.

Results

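Antisense transcripts, RNAs read from the strand opposite a gene, were followed together with the genes they overlap in chromatin-associated RNA of mouse embryonic stem cells. The members were selected on their type, antisense in GENCODE M21 (mm10 coordinates), and on a summed count of at least 40 over 4 libraries, leaving out the imprinted Kcnq1ot1, Airn and Nespas. They numbered 521 of 36918 genes counted and of 2718 antisense-type genes, of which 2063 had at least 1 count. For 501 of them a protein-coding gene overlapped on the opposite strand, and the one with the largest overlap, 486 distinct genes in all, was taken as the sense partner. The other 20 had no such partner.

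The study asked what loss of the transcription factor ZBTB21 does to chromatin and transcription. Nascent transcription was measured by ChAR-seq, in which RNA bound to the chromatin fraction of the cells is sequenced, so introns and unstable transcripts are counted along with exons. All libraries came from degron mouse embryonic stem cells, which express the plant F-box protein OsTIR1 from the Rosa26 locus and carry an auxin-inducible tag on ZBTB21. They were grown from genotyped clones, and the number of clones behind these libraries is not stated. The ZBTB21_degron group (2 libraries) was given 1 μg/ml doxycycline for 24 h and then 500 μM IAA, an auxin, for 6 h, which lets OsTIR1 mark the tagged protein for degradation. The untreated group (2 libraries) was the same kind of cell, and the sources used here do not say if it was given doxycycline, so the added compounds and the loss of ZBTB21 cannot be told apart. Nothing says that replicates were separate cultures, so a p-value covers only the spread among these 4 libraries, and that spread may be technical.

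Antisense transcription arises from promoters of its own, from bidirectional promoters that fire away from a gene, and from transcripts that run on past the end of a neighbour. Many antisense RNAs are short-lived, because the nuclear exosome degrades them soon after they are made, and chromatin fractions hold them better than cytoplasmic RNA does. A few act on the gene they overlap, as Tsix does on Xist in mouse embryonic stem cells, while for most members no role is known.

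The 5′ ends of 3 members that the results turn on are shown first. Printed below in lower case are the first exons of Gm15283, which spans the hypoxia factor gene Hif1a (exon at chr12:73949624-73949814, minus strand), of Gm15441, which spans Txnip (exon at chr3:96566699-96566801, minus strand), and of Gt(ROSA)26Sor, which meets the end of Thumpd3 (exon at chr6:113077174-113077333, minus strand). None of these 3 exons lies opposite an exon of its partner.
Gm15283: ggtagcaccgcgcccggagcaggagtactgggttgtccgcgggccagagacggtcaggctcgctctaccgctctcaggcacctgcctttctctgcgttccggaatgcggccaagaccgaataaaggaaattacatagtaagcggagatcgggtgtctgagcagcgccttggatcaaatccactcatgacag
Gm15441: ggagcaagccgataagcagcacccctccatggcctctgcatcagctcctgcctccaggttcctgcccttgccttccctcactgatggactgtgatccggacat
Gt(ROSA)26Sor: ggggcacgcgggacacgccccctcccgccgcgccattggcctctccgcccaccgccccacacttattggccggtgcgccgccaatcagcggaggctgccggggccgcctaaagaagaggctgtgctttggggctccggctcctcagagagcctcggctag

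A second set of first exons shares its last bases, shown in capitals. These 25 bases, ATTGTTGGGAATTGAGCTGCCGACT, close the first exon of 4 members, namely Gm28940 (chr1:82402632-82402746, minus), Gm28376 (chr1:16898185-16898217, plus), Gm13335 (chr2:20432848-20432934, minus) and Platr31 (chr6:127100297-127100412, plus).
Gm28940: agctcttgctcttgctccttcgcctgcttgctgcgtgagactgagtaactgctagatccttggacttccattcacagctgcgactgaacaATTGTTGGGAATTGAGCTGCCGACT
Gm28376: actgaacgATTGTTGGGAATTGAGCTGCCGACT
Gm13335: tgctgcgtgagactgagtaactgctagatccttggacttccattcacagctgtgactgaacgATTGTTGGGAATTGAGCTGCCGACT
Platr31: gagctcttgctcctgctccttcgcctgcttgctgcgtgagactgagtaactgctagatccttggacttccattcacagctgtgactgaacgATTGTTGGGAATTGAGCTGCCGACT

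Total counts ran from 4262382 to 6479842 per library, and a gene with no count could still be at up to 0.458 to 0.715 CPM, counts scaled to the size of the library, by counting error alone. Of 14361 genes tested with edgeR's quasi-likelihood test, 5766 passed a Benjamini-Hochberg adjusted p of 0.05, or 40.2%, with 20.3% higher and 19.8% lower in degron cells. Long genes were lower and short genes higher across the whole table, so a length-adjusted fit, in which that trend was removed, is given beside the main counts. In it 2333 genes were higher, or 16.2%, and 1702 were lower, or 11.9%. The 9 tested of 10 embryonic stem cell markers summed to 2290 and 2310 CPM in untreated and 2630 and 2630 CPM in degron cells. They did not move as one, with 5 higher and 2 lower (Dnmt3l at -1.19 and Tdgf1 at -0.63 on the log2 scale). For other cell types too, only tested markers were summed. Thy1, the 1 fibroblast marker tested of 8, stood at 7.01, 5.0, 4.27 and 3.46 CPM in the same order. Endoderm markers (4 tested of 7) summed to 48.6, 42.9, 33.4 and 29.1 CPM. Neural markers (2 tested of 5) summed to 18.1, 16.2, 11.6 and 13.0 CPM. Of the untested markers, Dcn, Afp, Sox1 and Tubb3 had no count. Of the tested ones, 2 endoderm markers and 1 neural marker were called lower, and the fibroblast marker Thy1 was not called (edgeR adjusted p = 0.0957). The fall of these low values moved with the groups, and its part in the results was not tested. In these bulk libraries, fewer cells of one kind and less RNA per cell cannot be told apart.

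An antisense RNA can be told from its partner only if reads were counted by strand. Of 1398 antisense-type genes covered at least 99.5% by genes on the other strand and by none on their own, 27.18% had no count. Among 165 with no overlap at all the share was 33.94%. All 52 covered to that extent from their own strand had no count. Genes under cover from the opposite strand thus had counts about as often as genes with no overlap, and genes under cover from their own strand did not. Reads on the wrong strand were not measured directly. Among 403 antisense-type genes within a partner of over 20 counts per kb, the antisense level per kb had a median of 7.72% of the partner's and only 0.921% at the low end, where 5% of these genes lie below.

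The members were a faint class. Their summed counts had a median of 96 and ran from 40 to 3799, with 266 of 521 under 100 counts and 43 at 400 or more. Together they held 0.485% and 0.489% of all counts in untreated cells and 0.505% and 0.482% in degron cells, and the groups overlapped in this share (95% Wilson intervals from 0.478% to 0.496% and from 0.476% to 0.51%). Per kb of gene, members stood at a median of 24.7% of their partner's level over 490 pairs. For 119 pairs the antisense gene was the higher one per kb, and for 10 it was under 2%. Just inside the limit, 1700095A21Rik had 10 and 17 untreated and 7 and 6 degron counts, and C330011M18Rik had 8, 7, 14 and 11. Just outside, B630019A10Rik had 13, 12, 7 and 7, and Arhgap33os had 10, 9, 12 and 8.

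Antisense genes moved in both directions. Of the 521 members, 513 passed the filter on low counts, and 47 of these were higher and 45 lower in degron cells, or 17.9% called against 40.2% of all genes. The median log2 fold change over the 513 was 0.069, beside -0.00075 over all genes. With the length trend removed, 21 were higher and 43 lower (median -0.054), so the split of calls between the directions depended on that scaling. The groups did not overlap in 287 members, or 55.9%, beside 69.0% of all genes.

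Low counts went with the smaller share of calls. Among members summing to 40 to 79 counts, 10.0% of 200 were called, beside 10.3% of 1633 genes of any type in that range. In the range from 160 to 319 counts the shares were 27.6% of 105 members and 26.2% of 1887 genes. From 320 counts they were 44% of 50 members and 53.7% of 8944 genes. The called members moved further than other called genes, with a median absolute log2 fold change of 0.773 beside 0.438, and at these counts a gene passes only with a large change. Among called members, 10 rose and 18 fell by at least 1 on the log2 scale, a split that was not compared with genes of like counts.

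Members followed the length trend of the table. With the members cut into 4 length classes of like size, the shortest, at up to 5218 bp, had 17 higher and 3 lower of 129, and the longest, at over 27245 bp, had 2 higher and 27 lower of 128. Among all genes of those lengths the numbers were 440 higher and 42 lower of 1815, and 738 higher and 2472 lower of 6755. After length adjustment the longest members had 5 higher and 16 lower, while all genes of that length had 1306 higher and 992 lower. All genes of that length had more counts than the longest members, with median sums of 1070 and 122.

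**Figure D1:**
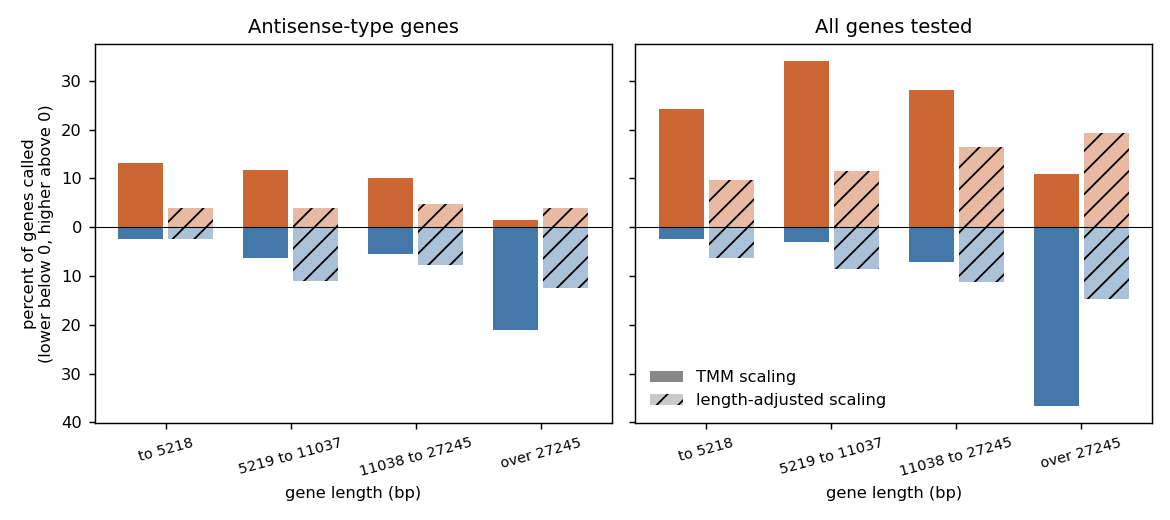
Percent of genes called higher (orange, above 0) and lower (blue, below 0) in degron cells, in 4 classes of gene length in bp, for the 513 tested members (left) and all 14361 tested genes (right), with TMM scaling (plain bars) and length-adjusted scaling (hatched bars). The longest members have 27 lower and 2 higher with TMM, and 16 lower and 5 higher once the length trend is removed.

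The largest change among the members was the fall of Gm15283, whose gene body spans Hif1a. Gm15283 (chr12:73843039-73949814, minus strand) is transcribed against Hif1a, and its 106776 bp hold the whole of Hif1a, the oxygen-sensing subunit of hypoxia-inducible factor. It was measured at 20.6 and 21.2 CPM in untreated cells and at 1.83 and 2.85 CPM in degron cells. Every degron value lay far below both untreated values. The log2 fold change was -3.19 ± 0.25 (SE, edgeR adjusted p = 7.77e-14), and the call held without any one library. Hif1a itself stood at 29.7, 29.8, 26.2 and 28.9 CPM, a log2 difference of -0.12 ± 0.13 that did not pass (adjusted p = 0.497). The antisense to sense ratio within each library, tested with limma over all opposite-strand pairs, fell by 2.88 ± 0.27 on the log2 scale (adjusted p = 3.85e-23). The overlap covers 46156 bases, or 43.2% of Gm15283, and exons of the pair share 330 bases. Reads were counted over the whole gene body, so the fall cannot be placed within or outside the overlap.

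**Figure D2:**
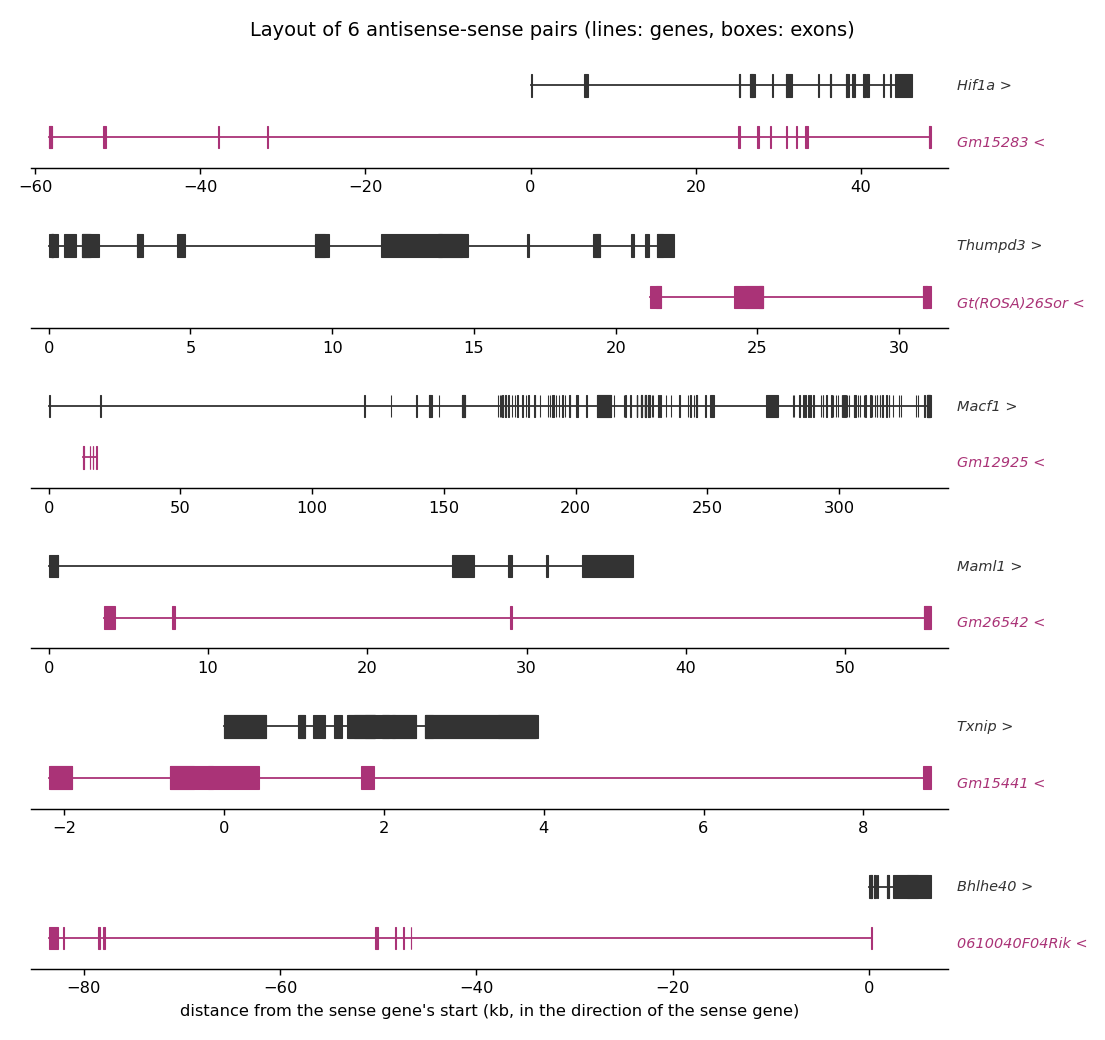
Gene bodies (lines) and exons (boxes) of 6 antisense members (purple) and their sense partners (black), drawn to scale along each row in kb from the start of the sense gene, with arrowheads beside the names for the strand. Gm15283 runs from -58.34 to 48.44 kb and holds the whole of Hif1a, while Gt(ROSA)26Sor overlaps the end of Thumpd3 only.

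Glycolysis and hypoxia genes, many of them targets of hypoxia-inducible factor, were mostly lower. Of the 38 gene entries tested, 3 were higher and 29 lower, beside 20.3% and 19.8% of all genes. The median log2 fold change was -0.52. Aldoa was counted as separate entries, lower at -0.21 and higher at 0.49. Members lay opposite 4 of the listed genes, and 3 of these members were called, all lower, beside 45 lower of all 513 tested members.

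Gm12868, antisense to the end of the glucose transporter gene Slc2a1, had 14 and 17.9 CPM untreated and 11.6 and 11.0 CPM in degron cells. Its groups did not overlap, and the log2 fold change was -0.48 ± 0.19 (adjusted p = 0.0365), a call lost without untreated replicate 2 (-0.30, adjusted p = 0.382) or without either degron replicate (-0.52 and -0.44). Slc2a1 fell by 0.84 ± 0.052 on the log2 scale (adjusted p = 4.97e-17).

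0610040F04Rik starts head to head with Bhlhe40, a hypoxia-induced transcriptional repressor that also acts in the circadian clock, and the gene bodies share 306 bases. It was measured at 24.8 and 28.6 CPM untreated and at 19.5 and 14.6 CPM in degron cells, without overlap. It fell by 0.61 ± 0.15 on the log2 scale (adjusted p = 0.00133). Bhlhe40, at 13.4, 7.39, 2.44 and 2.03 CPM, fell by 2.2 ± 0.32 (adjusted p = 3.14e-07). The sense gene lost more than the antisense RNA, so the ratio rose by 1.34 ± 0.32 (adjusted p = 0.000764), a call that was lost without untreated replicate 1 (0.83, adjusted p = 0.221). Hk1os, opposite the hexokinase gene Hk1, had a log2 difference of 0.11 ± 0.27 (adjusted p = 0.771). Hk1 was higher by 0.19 ± 0.078 (adjusted p = 0.0436), a call lost without untreated replicate 2 (0.16) or degron replicate 1 (0.15).

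Txnip and its antisense RNA fell together. Gm15441 (chr3:96555765-96566801, minus strand) spans Txnip, whose protein binds thioredoxin and limits glucose uptake. Gm15441 had 11.3 and 16.9 CPM in untreated and 6.41 and 4.88 CPM in degron libraries. Both degron values were under both untreated ones, and the log2 fold change was -1.28 ± 0.23 (adjusted p = 2.45e-05). Txnip went from 153 and 155 CPM to 67.1 and 67.7 CPM, a log2 fold change of -1.19 ± 0.076 (adjusted p = 1.94e-16). The ratio differed by -0.062 ± 0.25 on the log2 scale (adjusted p = 0.908). Per kb, Gm15441 stood at 3.0% of Txnip, and what part of its counts came from Txnip reads on the wrong strand was not tested.

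The Rosa26 antisense RNA rose while its partner fell. Gt(ROSA)26Sor (chr6:113067428-113077333, minus strand) is a ubiquitous noncoding gene whose locus is used for transgenes, and its 3′ end runs into that of Thumpd3, which encodes a tRNA methyltransferase. Its level was 16.8 and 17.2 CPM untreated and 41.5 and 48.0 CPM in degron cells. The groups lay well apart, and the gene rose by 1.39 ± 0.14 on the log2 scale (adjusted p = 4.01e-11). Thumpd3 moved the other way, from 43.5 and 43.4 CPM to 33.1 and 28.1 CPM, and fell by 0.49 ± 0.12 (adjusted p = 0.000737). The ratio rose by 1.88 ± 0.16 (adjusted p = 9.21e-28) and the call held without any one library. OsTIR1 was knocked into this locus in these cells, and what part that had in the rise was not tested.

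**Figure D3:**
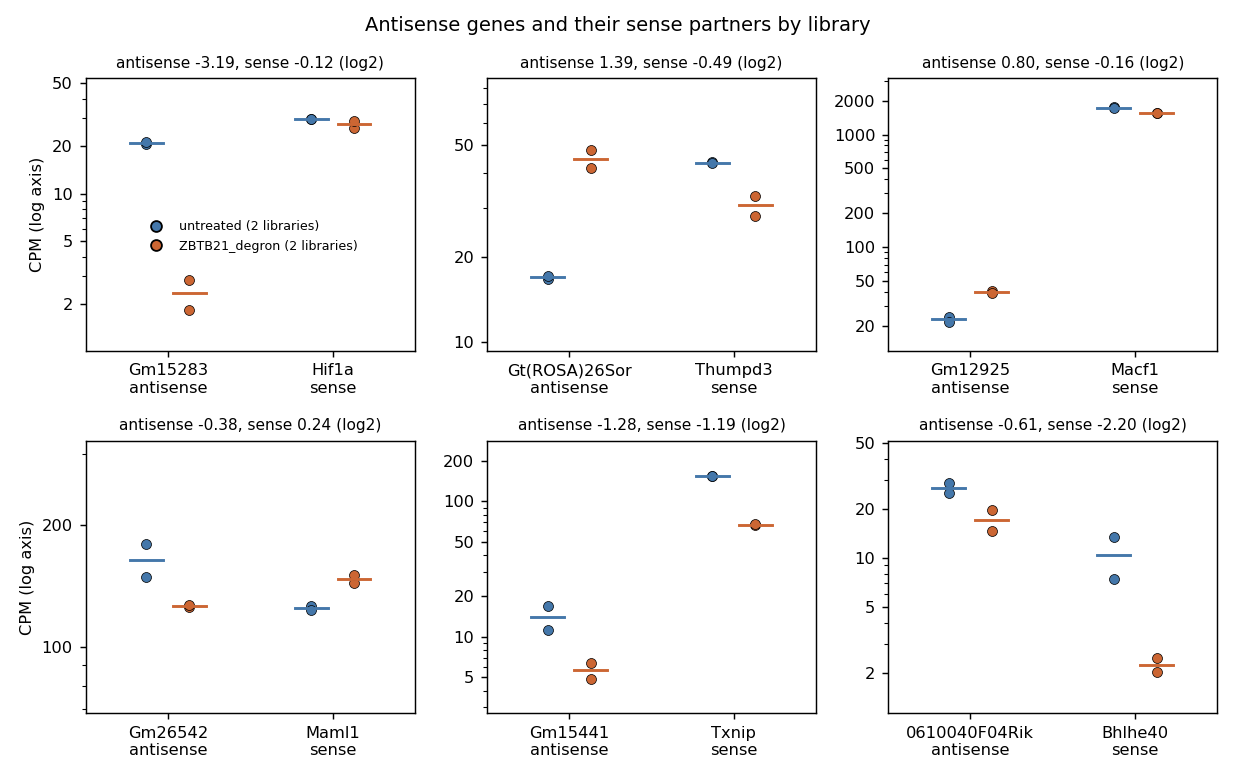
CPM on a log axis for 6 antisense members (left in each panel) and their sense partners (right), with 1 point for each library, a bar for the mean of 2 libraries, and the edgeR log2 fold changes above each panel (untreated blue, degron orange). Gm15283 drops from 20.6 and 21.2 to 1.83 and 2.85 CPM while Hif1a stays between 26.2 and 29.8 CPM.

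Other members that fell held their calls without any one library. 9530026P05Rik begins 3163 bp inside Adamts9, which encodes a secreted metalloprotease, and runs away from it for 332651 bp. It had 21.5 and 16.2 CPM untreated and 6.87 and 7.73 CPM in degron cells, without overlap, and fell by 1.38 ± 0.20 on the log2 scale (adjusted p = 3.91e-07). Adamts9 fell by 0.60 ± 0.093 (adjusted p = 1.25e-06). Gm8739, which holds the F-box gene Fbxw17 within its 148159 bp, had 4.88 and 7.39 CPM untreated and 1.83 and 1.83 CPM in degron libraries. Its log2 fold change was -1.72 ± 0.36 (adjusted p = 0.000163), while that of Fbxw17 was -0.15 ± 0.15 (adjusted p = 0.455). Gm38825, the most abundant member, starts head to head with Serbp1, whose protein binds RNA and ribosomes. It stood at 207 and 220 CPM untreated and at 178 and 149 CPM in degron cells, and fell by 0.37 ± 0.068 (adjusted p = 1.85e-05), beside a fall of 0.39 ± 0.056 for Serbp1 (adjusted p = 3.37e-07).

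Members that rose included antisense RNAs of signalling and RNA-binding protein genes. 1700084C06Rik overlaps the end of Tyk2, a Janus kinase of cytokine receptors, and had 18.1 and 23.8 CPM untreated and 40 and 37.2 CPM in degron cells. Its groups were clearly separate, and it rose by 0.90 ± 0.14 on the log2 scale (adjusted p = 8.2e-07), with Tyk2 at 0.33 ± 0.083 (adjusted p = 0.00142; lost without degron replicate 1, where its log2 fold change was 0.26). Lrrc75aos2, within Lrrc75a, had 11.3 and 7.39 CPM untreated and 20.4 and 16.5 CPM in degron cells. It rose by 0.99 ± 0.20 (adjusted p = 8.92e-05), and Lrrc75a rose by 0.36 ± 0.056 (adjusted p = 1.46e-06). Gm17092 lies near the start of Hnrnpd, which encodes a protein that binds AU-rich elements in mRNA. Its level went from 2.55 and 2.86 CPM to 5.8 and 7.73 CPM, a log2 fold change of 1.29 ± 0.33 (adjusted p = 0.00138), while Hnrnpd had -0.051 ± 0.075 (adjusted p = 0.623). 6330403L08Rik, head to head with the growth factor gene Pdgfa, had 19.8 and 17.4 CPM untreated and 28.2 and 31.1 CPM in degron cells and rose by 0.66 ± 0.14 (adjusted p = 0.000259). Pdgfa was called higher too, but that call was lost without untreated replicate 1 (0.20), untreated replicate 2 (0.17) or degron replicate 2 (0.081).

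A pair of overlapping antisense genes at the start of the glutathione synthetase gene Gss rose with it. Gssos1 had 1.91 and 1.91 CPM untreated and 5.49 and 4.48 CPM in degron cells (log2 fold change 1.39 ± 0.37, adjusted p = 0.00254; 0.0598 without degron replicate 1). Gssos2 had 1.27, 1.43, 3.36 and 3.46 CPM (1.32 ± 0.44, adjusted p = 0.015), a call lost whichever library was left out (1.25 to 1.41, adjusted p of 0.075 to 0.119) and after length adjustment (1.13). They lie on the same strand and overlap, so they are not independent of each other. Gss rose by 0.46 ± 0.069 (adjusted p = 7.11e-07).

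**Figure D4:**
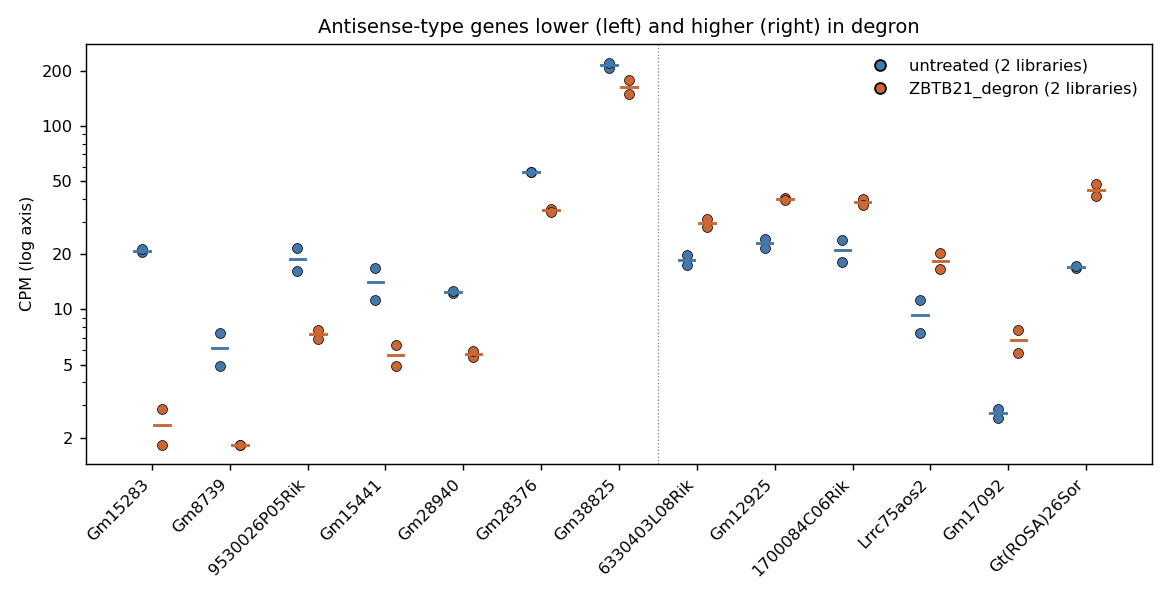
CPM on a log axis for 13 called members, 7 lower and 6 higher in degron cells, with 1 point for each library and a bar for the mean of 2 (untreated blue, degron orange). Gt(ROSA)26Sor rises from 16.8 and 17.2 to 41.5 and 48.0 CPM and Gm8739 falls from 4.88 and 7.39 to 1.83 and 1.83 CPM.

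Sense partners were longer than the members (median of 35032 beside 11037 bp) and had more counts (median sum of 1550 beside 98). Of the 442 tested, 153 were higher and 102 lower, or 57.7% called, beside 40.2% of all genes and 53.7% of genes with at least 320 counts, and the median log2 fold change was 0.068. With the length trend removed, 137 were higher and 46 lower. Long intergenic noncoding RNAs had 31 higher and 88 lower of 472 tested, with a median of -0.14. After length adjustment they had 17 higher and 81 lower, and calls among the 513 tested members also leaned lower (21 and 43). Most genes of both kinds were not called. Calls leaned lower too among genes of any type with few counts. Those with 40 to 79 counts had 34 higher and 115 lower of 1633, and those with 80 to 159 had 47 and 140 of 1732. Genes with 160 to 319 counts had 92 and 267 of 1887, while those from 320 counts had 2159 and 1145 of 8944. The differences between classes and between count ranges were not tested.

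Antisense genes and partners moved the same way more often than in opposite ways. In 449 pairs with both genes tested, both were called in 52, of which 20 rose together, 24 fell together and 8 moved apart. After length adjustment 17 pairs had both genes called in the same direction and 8 in opposite directions, not all of them the same pairs as before. In 27 pairs the antisense gene alone was called, in 208 the partner alone and in 162 neither. The log2 fold changes had the same sign in 66.4% of the pairs. Across pairs, which are not independent replicates and share libraries and the length trend, Pearson's r was 0.38 and Spearman's rho 0.41, and r was 0.25 after length adjustment. Protein-coding genes that overlap each other on opposite strands gave a similar share of the same sign, 64.5% of 1221 pairs, and r = 0.33. Their calls were more frequent and leaned upward. Both genes were called in 229 of those pairs, of which 149 rose together, 46 fell together and 34 moved apart.

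**Figure D5:**
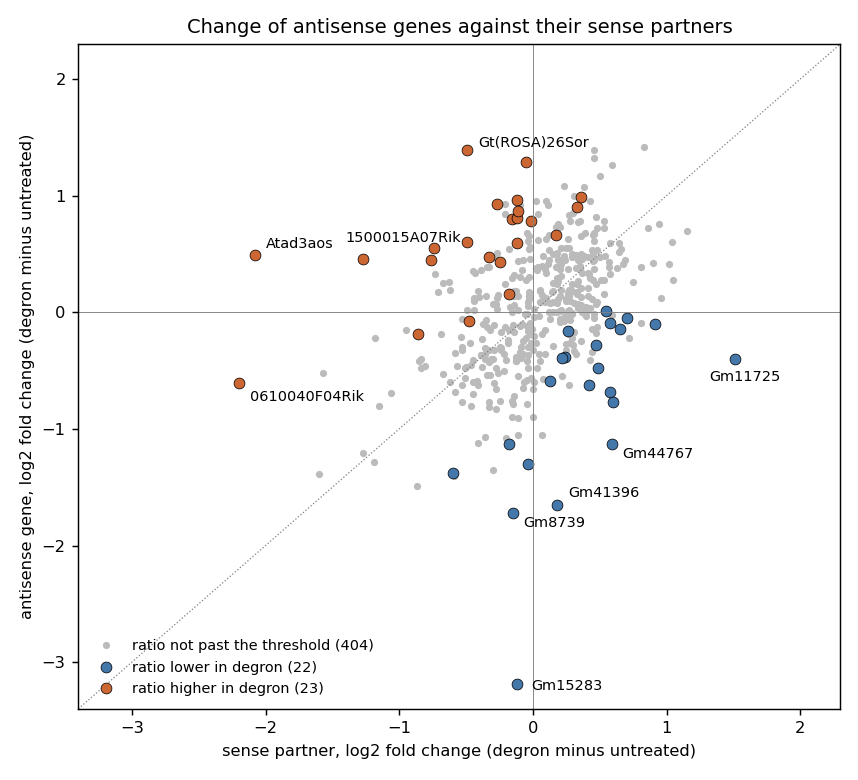
Log2 fold change of the antisense member (y) against that of its sense partner (x) for the 449 pairs with both genes tested, with a dotted line where the changes are equal. The 23 pairs with a higher antisense to sense ratio (orange) lie above that line and the 22 with a lower ratio (blue) below it, Gm15283 the farthest down at -3.19.

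The layout of the pair was compared in 4 forms. Members within the sense gene had 10 higher and 12 lower of 160, members that hold the sense gene 4 and 4 of 33, head to head pairs 13 and 14 of 140 and tail to tail pairs 17 and 14 of 160, or 13.8%, 24.2%, 19.3% and 19.4% called beside 40.2% of all genes. After length adjustment the counts were 4 higher and 16 lower, 5 and 4, 6 and 8, and 4 and 14 in the same order, so the balance in tail to tail pairs turned with the scaling. Exons of the antisense gene and of the partner overlapped in 377 of 501 pairs, by a median of 297 bases. Among the 343 such pairs tested, both genes were called in 41, of which 20 rose together, 14 fell together and 7 moved apart. Among the 106 with no exon overlap, both were called in 11, of which 10 fell together and 1 moved apart. Over all 1929 opposite-strand pairs, both genes were called in 301.

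The ratio of antisense to sense was tested within each library, where a factor common to the whole library cancels but a trend with gene length does not. It rose in 23 member pairs and fell in 22, or 10.0% of 449, beside 13.7% of all 1929 opposite-strand pairs and 16.2% of pairs of protein-coding genes. With the length trend removed, it rose in 12 and fell in 37, so the even split depended on the scaling. Head to head pairs had 5 higher and 13 lower ratios of 132, and tail to tail pairs 8 higher and 2 lower of 142, a difference that was not tested. In 8 pairs the call held without any one library.

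Of the pairs that moved apart, 5 had a higher antisense gene and a lower partner. Gm12925 lies within the cytoskeletal crosslinker gene Macf1 and had 24.2 and 21.7 CPM untreated and 40.6 and 39.5 CPM in degron cells, without overlap. It rose by 0.80 ± 0.13 on the log2 scale (adjusted p = 1.89e-06). Macf1, a very long gene at 1750, 1720, 1560 and 1540 CPM, fell by 0.16 ± 0.038 (adjusted p = 0.000495), but with the length trend removed it was higher by 0.25, and the ratio of 0.96 ± 0.16 (adjusted p = 5.7e-08) shrank to 0.29 (adjusted p = 0.211). Whether this pair moved apart thus depended on the scaling.

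1500015A07Rik overlaps the end of Afap1l1, which encodes an actin-associated protein, and had 11.0 and 13.1 CPM untreated and 16.3 and 16.9 CPM in degron cells (log2 fold change 0.46 ± 0.18, adjusted p = 0.0393). That call was lost without untreated replicate 1 (0.35, adjusted p = 0.278) or either degron replicate (0.50 and 0.45), and after length adjustment (0.25). Afap1l1 went from 15.9 and 13.8 CPM to 6.41 and 5.9 CPM and fell by 1.27 ± 0.22 (adjusted p = 6.48e-06). The ratio rose by 1.67 ± 0.24 (adjusted p = 4.27e-10) and held without any one library. E530011L22Rik, whose end overlaps that of the cyclophilin gene Nktr, had 4.88 and 6.43 CPM untreated and 9.77 and 12.0 CPM in degron cells. Its log2 fold change was 0.93 ± 0.25 (adjusted p = 0.00208; 0.0526 without untreated replicate 1), that of Nktr was -0.27 ± 0.082 (adjusted p = 0.00662; 0.105 without untreated replicate 2 and 0.0527 without degron replicate 1), and the ratio rose by 1.17 ± 0.26 (adjusted p = 0.000223). Rab10os overlaps the end of Rab10, a small GTPase of vesicle traffic, and rose from 26.8 and 26.9 CPM to 36.5 and 35.6 CPM (0.43 ± 0.12, adjusted p = 0.00524), while Rab10 fell by 0.25 ± 0.071 (adjusted p = 0.00486; 0.0652 without untreated replicate 1 and 0.169 without degron replicate 1). Neither call of this pair held after length adjustment (0.28 and -0.11) or with DESeq2 (adjusted p = 0.0943 and 0.0667).

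The other 3 pairs that moved apart had a lower antisense gene and a higher partner. Gm26542 runs through 33206 of the 36678 bp of the Notch coactivator gene Maml1 from beyond its end. It had 179 and 149 CPM untreated and 125 and 127 CPM in degron cells. Both untreated values were above both degron values, and the log2 fold change was -0.38 ± 0.073 (adjusted p = 4.18e-05). Maml1 stood at 126, 123, 144 and 150 CPM, rose by 0.24 ± 0.069 (adjusted p = 0.00514), and the ratio fell by 0.61 ± 0.10 on the log2 scale (adjusted p = 1.74e-07). Gm15983, head to head with the methyltransferase gene Eef2kmt, had a log2 fold change of -0.62 ± 0.24 (adjusted p = 0.0368; 0.35 without untreated replicate 2, 0.128 and 0.0663 without degron replicates 1 and 2) beside 0.42 ± 0.13 for Eef2kmt (0.0694 without untreated replicate 2). Gm44767, head to head with Pop4, a subunit of ribonuclease P, had -1.13 ± 0.45 (adjusted p = 0.0434; 0.411 without degron replicate 2, 0.141 and 0.169 without untreated replicates 1 and 2) beside 0.59 ± 0.16 for Pop4 (0.0565 without untreated replicate 2). After length adjustment no gene of the Gm15983 and Gm44767 pairs passed, at log2 fold changes of -0.60, 0.23 (Eef2kmt), -0.99 and 0.37 (Pop4).

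In further pairs the sense gene was called and the antisense gene was not. Vwa1, an extracellular matrix gene at 4.25 and 4.76 CPM untreated, had 0.763 and 1.42 CPM in degron cells and fell by 2.08 ± 0.44 on the log2 scale (adjusted p = 0.000161). Its antisense Atad3aos had 3.61, 5.72, 5.8 and 7.32 CPM (0.49 ± 0.29, adjusted p = 0.189), and the ratio rose by 2.24 ± 0.43 (adjusted p = 8.38e-06). Tspan32, a tetraspanin gene, rose by 0.91 ± 0.21 (adjusted p = 0.000539), while Tspan32os had -0.10 ± 0.14 (adjusted p = 0.58), and the ratio fell by 0.98 ± 0.23 (adjusted p = 0.000776). Tigar, a phosphatase gene that restrains glycolysis, rose from 124 and 125 CPM to 200 and 203 CPM (0.70 ± 0.065, adjusted p = 1.25e-11), while Platr31 had 13.6, 11.7, 12.8 and 11.6 CPM (-0.046 ± 0.19, adjusted p = 0.873). Prx, within which Gm15541 lies, rose by 0.49 ± 0.10 (adjusted p = 0.000145), and Gm15541 had -0.48 ± 0.22 (adjusted p = 0.079). Their ratio fell by 1.05 ± 0.24 (adjusted p = 0.000258), or by 0.57 without degron replicate 2 (adjusted p = 0.257).

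Pluripotency and lineage factors had 11 genes higher and 10 lower of 34 tested, beside 20.3% and 19.8% of all genes. The 7 members opposite them had edgeR adjusted p from 0.165 to 0.948. Tbx3os1, head to head with the naive pluripotency factor gene Tbx3, had 33.3 and 34.3 CPM untreated and 36.5 and 31.1 CPM in degron cells, and the groups overlapped (0.012 ± 0.12, adjusted p = 0.948). Tbx3 rose from 138 and 114 CPM to 192 and 176 CPM (0.55 ± 0.073, adjusted p = 6.3e-08). Tsix, the antagonist of Xist, had 5.95, 6.19, 8.24 and 4.88 CPM with overlapping groups (0.16 ± 0.28, adjusted p = 0.684). Outside that list, Hnf4aos had -0.52 ± 0.20 (adjusted p = 0.0304; 0.245 without untreated replicate 2, 0.0628 and 0.0872 without degron replicates 1 and 2) beside -1.57 ± 0.36 for the endoderm and liver factor Hnf4a (adjusted p = 0.000525). Junos had -0.77 ± 0.28 (adjusted p = 0.0233; 0.155 without untreated replicate 1 and 0.247 without degron replicate 1) beside 0.60 ± 0.28 for Jun (adjusted p = 0.0847). The calls of Hnf4aos and Junos were also lost after length adjustment (-0.44 and -0.52).

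Other listed groups had few antisense members. Stress response and amino acid supply genes had 18 higher and 1 lower of 27 tested (median 0.51), beside 20.3% and 19.8% of all genes. No member lay opposite them. Factors that remove or end antisense and upstream transcripts, such as exosome and Integrator subunits, had 12 higher and 3 lower of 41 tested, beside 20.3% and 19.8% of all genes, with a median of 0.075. Members lay opposite 3 of them, and 1 was called. It was Gm13427, opposite Exosc2, higher by 0.73 on the log2 scale at the edge of the threshold (edgeR adjusted p = 0.0496). Exosc2 was higher by 0.20 (adjusted p = 0.037).

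The 25-base stretch shown in capitals above was looked for in the whole table after the values were seen, so its counts are a description. It lay in the first 600 bases of a transcript of 22 genes, 18 of them tested. Of these, 9 were lower in degron cells, beside 19.8% of all genes, and the median log2 fold change was -0.46. None was higher by edgeR, by DESeq2 or at an unadjusted p under 0.05 (0, 0 and 0). DESeq2 called 5 lower, and 6 were lower after length adjustment.

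Among the 4 members with the stretch, 2 fell. Gm28940, within the rhomboid protease gene Rhbdd1, had 12.3 and 12.6 CPM untreated and 5.49 and 5.9 CPM in degron cells. It fell by 1.13 ± 0.23 on the log2 scale (adjusted p = 9.06e-05), with no overlap and with Rhbdd1 at -0.18 ± 0.08 (adjusted p = 0.0682). Gm28376 (193447 bp), across the end of the junctophilin gene Jph1, went from 56.3 and 56.0 CPM to 35.2 and 34.0 CPM, a fall of 0.69 ± 0.11 (adjusted p = 9.22e-07), and Jph1 fell by 1.06 ± 0.23 (adjusted p = 0.000271). Gm13335 had 3.4, 3.34, 2.14 and 2.24 CPM (-0.62 ± 0.39, adjusted p = 0.208), and Platr31, given above, did not pass.

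Promoter windows were searched for ACGTG, the core of the hypoxia response element, on both strands, within 250 bases before to 50 after a RefSeq start (GRCm38.p6). The palindrome CACGTG, the E-box bound by bHLH factors such as MYC and USF, holds ACGTG on each strand. Of the members, 218 matched a window by name, and 56 of these, or 25.7%, had ACGTG, beside 21.8% of 27025 genes. Among called members with a window the motif was in 10 of 24 lower and 4 of 18 higher ones, or 41.7% and 22.2%. That difference was not tested. Gm15283, Gm15441 and Gm12925 had no matched window and were not searched. The E-box was in 11.9% of members and 8.09% of genes. As examples with the E-box in capitals, the windows of Rptoros, antisense to the mTORC1 gene Rptor (chr11:119834316-119834615, minus strand), and of Rab10os (chr12:3235541-3235840, plus strand) are shown.
Rptoros: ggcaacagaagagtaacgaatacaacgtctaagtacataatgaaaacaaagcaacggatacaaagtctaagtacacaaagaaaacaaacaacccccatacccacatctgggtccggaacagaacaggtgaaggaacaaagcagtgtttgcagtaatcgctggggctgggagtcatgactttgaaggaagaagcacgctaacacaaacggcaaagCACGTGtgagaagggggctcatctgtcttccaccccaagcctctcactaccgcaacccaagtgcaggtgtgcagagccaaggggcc
Rab10os: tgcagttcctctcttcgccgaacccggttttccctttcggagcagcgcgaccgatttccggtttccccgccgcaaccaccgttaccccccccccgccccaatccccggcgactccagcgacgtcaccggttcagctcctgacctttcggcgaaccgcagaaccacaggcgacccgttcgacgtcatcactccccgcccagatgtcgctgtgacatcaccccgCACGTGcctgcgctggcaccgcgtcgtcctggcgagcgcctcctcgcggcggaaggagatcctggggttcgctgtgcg

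Of these, Rptoros had 4.46 and 5.0 CPM untreated and 2.59 and 1.83 CPM in degron cells, without overlap. Its log2 fold change was -1.05 ± 0.36 (adjusted p = 0.0172; 0.127 without degron replicate 2, 0.06 and 0.126 without untreated replicates 1 and 2). Rptor, the gene around it, had -0.11 ± 0.041 (adjusted p = 0.0278), a call lost without untreated replicate 2 (-0.082) or degron replicate 1 (-0.074), and was higher by 0.29 once the length trend was removed.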

How the data were processed

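ChAR-seq libraries (2 untreated, 2 ZBTB21_degron) were grouped by the submitters' labels. The authors deposited raw counts per gene. Reads had been trimmed with cutadapt 2.6, mapped to mm10 (the methods name bowtie2, the submitters' processing notes list STAR 2.7.6a) and, without PCR duplicates, assigned by featureCounts 1.6.3 to gene bodies, less the first 300 bp. The strand setting and annotation release are not given in the sources used here. Spike-in reads were not used here, so a shift shared by every gene could not be seen.

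Of 36918 gene IDs, 36770 matched GENCODE M21, which gave type, position and overlap. Genes were filtered with edgeR's filterByExpr (minimum count 10, total 15), scaled by TMM and compared with the quasi-likelihood F test (edgeR 4.0.16, R 4.3.3, two-sided, Benjamini-Hochberg over all tested genes). SE came from the fold change and F statistic. CPM use TMM-scaled library sizes. Antisense to sense ratios (log2 CPM, prior count 2) were tested with limma 3.58.1 over 1929 opposite-strand pairs. Scripts were tested on simulated data. Intervals and floors (3 counts) cover counting error only. Replicates were separate libraries, with a chi-square over degrees of freedom of 1.3 (untreated) and 1.39 (degron) between them.

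Members and lists were chosen with earlier results of these data known. Genes named were the largest and most significant changes in each direction, the most abundant members, pairs with both genes called, pairs with the smallest ratio p, members by the count limit and those opposite listed genes. Of these a selection is described, with Hnf4aos, Junos, Rptoros, Gm13335 and Tspan32os picked after their values were seen. Alternatives were DESeq2 1.42.0 size factors and Wald test, total counts, a loess length adjustment (span 0.3), no filter, higher count limits, limits on overlap or same-strand cover, prior count 0.5, an edgeR difference test of the ratio, a replicate block and each library left out.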

Additional observations from a re-analysis of the deposited data

How the results depend on the processing

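Counts of called members and pairs moved with the processing. DESeq2's Wald test, which gave no adjusted p for 382 of the 513 members, called 6 higher and 9 lower, all 15 also called the same way by edgeR. It called 90 partners higher, and both genes of 5 pairs in the same and of 2 in opposite directions. Length-adjusted scaling gave 21 members higher, 46 partners lower, 17 pairs called the same way and 8 opposite. It left 12 ratios higher and 37 lower. With a mean of at least 50 counts, 11 ratios were higher and 12 lower, and with an overlap of at least 10% of the antisense gene 14 were lower.

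Leaving out 1 library gave 25 to 41 members higher and 25 to 33 lower, 116 to 133 partners higher and 83 to 92 lower, 20 to 26 pairs called the same way and 4 to 5 opposite, and 8 to 15 ratios higher and 8 to 16 lower. Higher members were 26 without untreated replicate 1, 27 without untreated replicate 2 and 25 without degron replicate 1. Lower members were 25 and 28 without untreated replicates 1 and 2 and 29 without degron replicate 2. Of the 92 called members, 19 kept their call in every such fit.

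Replicate numbers did not pair the libraries (deviations of replicate 1 correlated at r = 0.0578 between the groups over 10271 genes). With the replicate block, 50 members were higher and 51 lower, 162 partners higher and 109 lower, 46 pairs were called the same way and 9 opposite, and 24 ratios were higher and 22 lower. Reversals with length-adjusted scaling were Macf1 (0.25) and Rptor (0.29). Of 720 fold changes of 72 named genes under alternatives, 79 lost the threshold, 6 gained it and 2 reversed. The other 633 were counted as unchanged, including called genes with no DESeq2 adjusted p and uncalled genes whose sign changed. Of 114 values of 11 named ratios, 3 lost the threshold. The cause was not tested. Depth limits the class: with 266 members under 100 counts, small changes were not detectable.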

Other observations

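Of the 24 antisense or opposite-strand RNAs listed by name, 9 were tested, with 2 higher and 2 lower, and 3 of the 9 were members. The other 6 carry another type in the annotation and so were no members. A330023F24Rik, Dio3os and Foxl2os among them did not pass (adjusted p = 0.0631, 0.237 and 0.505). Zfas1, which starts beside Znfx1, had 643 and 615 counts in untreated and 1386 and 1126 counts in degron libraries and rose by 0.64 ± 0.065 on the log2 scale (edgeR adjusted p = 1.39e-10). Bvht, a noncoding RNA known from heart development in mouse, had 78, 87, 217 and 181 counts and rose by 0.91 ± 0.14 (adjusted p = 1.52e-06). Otx2os1, next to the anterior neural and primed pluripotency factor gene Otx2, had 118, 99, 129 and 86 counts and a log2 fold change of -0.38 ± 0.15 (adjusted p = 0.0385), which was lost without untreated replicate 1 (-0.32, adjusted p = 0.214), untreated replicate 2 (-0.41) or degron replicate 2 (-0.30) and with the length trend removed (-0.037, adjusted p = 0.886).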
